A study of Mus musculus with 4 samples.

Results

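The genes Spp1, Fn1, Thbs1, Vcam1, Ppbp, Cd44, Itgav and Itga4 were followed through CD45+ cells sorted from melanomas that are resistant to targeted therapy. They are 8 of the 12584 genes in the count table, and all 8 were found in it by symbol. They were selected on measured values: in earlier results from these same libraries, Vcam1 and Ppbp were among the genes furthest below the control under celecoxib, and Fn1 was far lower once 5-azacytidine was added. The contrasts between libraries given here are therefore a description of the selected genes and carry no test. The tumours grew from RTT cells of YUMM1.7-OVA, a mouse melanoma line that carries ovalbumin and is resistant to targeted therapy. All hosts were Rag2-/- mice, which make no T or B cells of their own, and all received OT-1 T cells (CD8+ cells that recognise ovalbumin) on day 7, with tumours taken on day 10, 72 h later. The CTRL library came from tumours of mCherry-carrying RTT cells. The IRF3/7 library came from RTT cells that overexpress Irf3 and Irf7, so the change was made in the cancer cells and not in the sorted cells. The COX2i library came from mCherry-carrying RTT tumours treated with celecoxib, an inhibitor of cyclooxygenase 2, and the COX2i + 5-AZA library from such tumours given celecoxib and 5-azacytidine, an inhibitor of DNA methylation. Each group was 1 library made from 3 tumours pooled before sorting, so no spread between animals could be measured.

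Macrophages secrete proteins that other cells hold on to, and they carry the receptors with which they hold on themselves. Osteopontin (Spp1), fibronectin (Fn1) and thrombospondin-1 (Thbs1) are secreted proteins of the matrix, and each carries the short peptide Arg-Gly-Asp, which integrins with an αv chain (Itgav) bind in osteopontin and fibronectin. VCAM-1 (Vcam1) is a surface ligand of integrins with an α4 chain (Itga4), which also bind a Leu-Asp-Val peptide of fibronectin, while CD44 (Cd44) binds hyaluronan and osteopontin. Ppbp encodes a chemokine best known from platelets, which attracts neutrophils through the receptor CXCR2.

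The coding sequence around each integrin site is shown to set out what the 4 ligands share and where they differ. Each is 57 bases of the coding strand from the GENCODE M21 annotation of GRCm38, with the codons of the site in capitals, whose coordinates are given below the sequences. The first 3 sequences hold Arg-Gly-Asp, the fourth the Leu-Asp-Val of fibronectin and the last the Ile-Asp-Ser with which VCAM-1 is bound.
Spp1: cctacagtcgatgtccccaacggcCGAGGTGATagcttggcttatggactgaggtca
Fn1: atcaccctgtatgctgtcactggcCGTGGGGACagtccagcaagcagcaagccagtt
Thbs1: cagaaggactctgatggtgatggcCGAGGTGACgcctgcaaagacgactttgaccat
Fn1: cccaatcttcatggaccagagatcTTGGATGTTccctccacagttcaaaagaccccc
Vcam1: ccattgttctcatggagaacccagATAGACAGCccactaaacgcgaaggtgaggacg
The Spp1 site starts at residue 145 of 295 and lies in exon 7 of 8 at chr5:104439481-104439489 on the plus strand. The Arg-Gly-Asp of Fn1 shown starts at residue 1614 of 2477, in exon 30 of 46 at chr1:71606746-71606754 on the minus strand, and its Leu-Asp-Val at residue 2101, in exon 40 at chr1:71597683-71597691. Fn1 holds 2 Arg-Gly-Asp stretches, and the other starts at residue 2181. The Thbs1 stretch runs across an exon junction, with the site at residue 927 of 1171 and at chr2:118122882-118122890 on the plus strand. The Vcam1 site starts at residue 63 of 739, in exon 2 of 9 at chr3:116128678-116128686 on the minus strand. The assay counts probes against each transcript, so these data do not say which exons the transcripts held.

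The libraries held 8953 CTRL, 6329 IRF3/7, 9133 COX2i and 10032 COX2i + 5-AZA cells. Summed UMIs (counted transcript molecules) ranged from 26356819 in the IRF3/7 library to 78722763 in the COX2i library, and the median per cell from 3168 to 7502 in the same libraries. The IRF3/7 library was thus the shallowest. Of 29259 droplet barcodes, 4830 occurred in more than 1 library, as happens when samples with separate probe barcodes share droplets, and none of the full barcodes was shared. Cell classes came from the deposited annotation, which was built by clustering on expression. Spp1, Fn1, Thbs1 and Cd44 are among the genes that mark its TAM_Spp1 class (TAM stands for tumour-associated macrophage), so levels by class are a description too. The class makeup differed widely between libraries. Monocytes and macrophages (MoMac) together numbered 7614, 5035, 7378 and 8801 cells in CTRL, IRF3/7, COX2i and COX2i + 5-AZA, of which macrophages were 7475, 439, 6820 and 4117. The Myofibrobl class numbered 554, 172, 913 and 160 cells, and the summed level of 8 fibroblast markers there was 8667 to 20891 CPM (counts per 1000000 UMIs), against 53.3 to 353 CPM in the MoMac cells. Levels below are summed UMIs scaled to the total UMIs of the cells considered, as CPM, with exact Poisson 95% intervals for counting error only. Probe yields differ between genes, so levels are compared within a gene and not between genes.

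Within MoMac cells, 4 of the 8 genes were at least 2-fold lower in IRF3/7 than in CTRL, where 32.2% of 11793 genes tested were, and none was 2-fold higher, where 9.16% of genes were. Under COX2i, 3 of 8 were at least 2-fold below CTRL (4.7% of 11905 genes) and none above it (1.93%). Under COX2i + 5-AZA, 5 of 8 were below CTRL (11.3% of 12001 genes) and none above (5.65%). Set against COX2i, the COX2i + 5-AZA library had 2 of 8 at least 2-fold lower (9.77% of 11940 genes) and 2 of 8 at least 2-fold higher (6.16%). Because these contrasts chose the genes, nothing is read from the counts. The comparisons share the CTRL or the COX2i library and are not independent of each other. The median log2 ratio over the genes tested stood at -0.55 for IRF3/7, 0.01 for COX2i and -0.16 for COX2i + 5-AZA relative to CTRL, and at -0.19 for the second drug group relative to the first. Scaled by median-of-ratios size factors these medians were -0.03, 0.01, 0.00 and -0.03, and the share of higher genes among those past 2-fold went from 22.1% to 43.6% for IRF3/7 relative to CTRL and from 38.6% to 49.6% for the second drug group relative to the first.

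**Figure D1:**
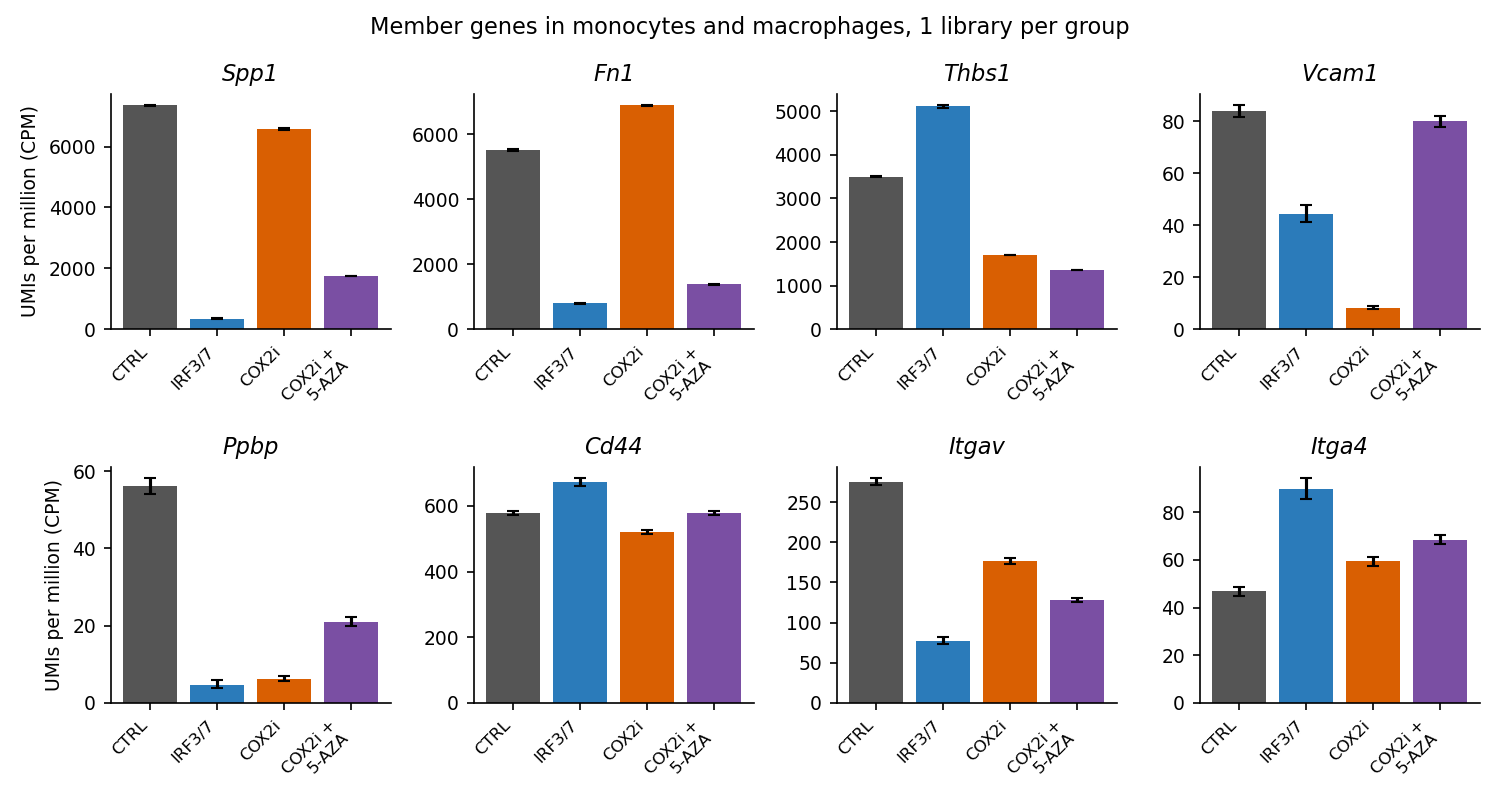
Level of each of the 8 genes in MoMac cells, as CPM on a linear axis from 0, in the 4 libraries. Bars are the summed level of 1 library and error bars the exact Poisson 95% interval. Vcam1 stands at 83.8, 44.4, 8.36 and 79.9 CPM and Ppbp at 56.2, 4.70, 6.22 and 21 CPM in CTRL, IRF3/7, COX2i and COX2i + 5-AZA, while Cd44 stays between 519.8 and 672 CPM.

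Osteopontin transcripts were high in the MoMac cells of 2 libraries and low in the other 2. Spp1 stood at 7348 CPM (7325 to 7371) in CTRL, 357 (349 to 366) in IRF3/7, 6576 (6556 to 6596) in COX2i and 1759 (1749 to 1769) in COX2i + 5-AZA. The log2 ratio to CTRL was -4.36 (-4.40 to -4.33) in IRF3/7 and -2.06 (-2.07 to -2.05) in COX2i + 5-AZA. Within TAM_Spp1 cells the level was 12066 CPM in CTRL, 7668 in COX2i and 4549 in COX2i + 5-AZA. In TAM_C1q cells, macrophages that the annotation names for complement C1q, COX2i lay above CTRL, with 6826 CPM in CTRL, 8387 in COX2i and 2989 in COX2i + 5-AZA. The 2 macrophage classes thus moved in opposite directions under COX2i alone, at log2 ratios of -0.65 (-0.67 to -0.64) and 0.30 (0.29 to 0.31). The inflammatory monocytes (Infl_Mono) of the IRF3/7 library held 377 CPM, against 3500.5 CPM in the 93 such cells of CTRL. In these CTRL cells the 7 macrophage markers summed to 51718 CPM, against 10034 in IRF3/7, and the part of this in the Spp1 difference was not tested. The difference was smaller in a cluster rebuilt without these genes that was 99.5% Infl_Mono. There Spp1 stood at 322 CPM in CTRL (24 cells) and 163 in IRF3/7 (947 cells). When the COX2i + 5-AZA cells were weighted to the class mix of CTRL, the log2 ratio of Spp1 to CTRL was -1.42, and over clusters rebuilt without these genes it was -1.15. For IRF3/7 the same weightings gave -5.41 and -1.14, over 30.1% and 2.18% of the CTRL UMIs. The annotated classes used included TAM_cycling, where IRF3/7 had only 20 cells and 22 Spp1 UMIs.

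Spp1 was also counted in cells outside the MoMac set. In the IRF3/7 library only 13.6% of its UMIs lay in MoMac cells, while 74.0% lay in the 172 Myofibrobl cells and 11.8% in the 568 NK cells. The Myofibrobl level was 5786 CPM in CTRL, 7768 in IRF3/7, 8918 in COX2i and 4869 in COX2i + 5-AZA, a far narrower range than in MoMac cells. NK cells held 2761 CPM (2688 to 2834) in IRF3/7, 1058 (936 to 1192) in COX2i and 1080.0 (1034 to 1128) in COX2i + 5-AZA. With every cell thinned to 2000 UMIs, 67.0% of the NK cells of the IRF3/7 library had an Spp1 UMI (274 of 409, Clopper-Pearson interval 62.2 to 71.5) but only 3.91% had one of Fn1 (16 of 409). In the cDC2 of the same library, dendritic cells taken here as the background class, 11.4% (8.21 to 15.2) had an Spp1 UMI, at a median of 3256 UMIs per cell against 3438 in the NK cells. The cDC2 share followed the library, at 45.2% in CTRL, 53.1% in COX2i and 15.1% in COX2i + 5-AZA. The part of free RNA in the class levels was not tested.

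Fibronectin transcripts separated the COX2i + 5-AZA library from the COX2i library. Fn1 stood at 5511 CPM (5492 to 5531) in CTRL, 798 (785 to 812) in IRF3/7, 6885 (6865 to 6906) in COX2i and 1388 (1379.5 to 1397) in COX2i + 5-AZA. COX2i was the highest of the 4 libraries, at a log2 ratio of 0.32 (0.31 to 0.33) to CTRL, and COX2i + 5-AZA lay 4.96-fold below COX2i, at -2.31 (-2.32 to -2.30). Fn1 ranked 36th from the lowest of 10447 ranked genes in that contrast. The lower level under COX2i + 5-AZA was seen in every class measured. Of 9 classes with at least 50 cells in both libraries, 8 were at least 2-fold lower, and the log2 ratios ran from -2.43 in TAM_cycling (6342 against 1179 CPM) to -0.77 in Myofibrobl (9088 against 5320.0 CPM). TAM_C1q went from 7300.0 to 1584 CPM, TAM_Spp1 from 11640.2 to 5235, Monocyte_1 from 3386 to 879 and Infl_Mono from 3858 to 890.4. Over 15 clusters rebuilt without these genes, Fn1 was lower in 15 and at least 2-fold lower in 12. With both libraries weighted to the CTRL mix the log2 ratio was smaller, -1.82 over annotated classes and -1.65 over rebuilt clusters. The summed level of 8 fibroblast markers in TAM_C1q was 379 CPM in CTRL, 458 in COX2i and 161 in COX2i + 5-AZA. All 8 were lower in COX2i + 5-AZA than in COX2i, whereas between CTRL and COX2i 5 of the 8 were lower and the higher sum came mostly from Col1a2 (143 and 240.5 CPM). In cDC2 Fn1 stood at 613, 836 and 230.2 CPM in the same order. The part of the fibroblast markers in the Fn1 difference was not tested.

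Most thrombospondin-1 transcripts lay in TAM_Spp1 cells in CTRL and in Infl_Mono cells in IRF3/7. In COX2i + 5-AZA, Monocyte_1 held 30524 of the 93194 MoMac UMIs of Thbs1, against 20889 in TAM_Spp1. Across MoMac cells Thbs1 stood at 3501 CPM (3485 to 3517) in CTRL, 5112 (5079 to 5145) in IRF3/7, 1705 (1695 to 1715) in COX2i and 1362 (1353 to 1371) in COX2i + 5-AZA. IRF3/7 was the highest library, and both drug-treated libraries lay at least 2-fold below CTRL, with log2 ratios of -1.04 (-1.05 to -1.03) and -1.36 (-1.37 to -1.35). In CTRL, the TAM_Spp1 class held 63.0% of all Thbs1 UMIs, at 12065 CPM. Its level there was 6441 CPM in COX2i and 4149.9 in COX2i + 5-AZA, whereas TAM_C1q cells went from 1874 to 1699.8 and 1289 CPM. None of the 7 annotated classes measured reached a 2-fold difference between COX2i and CTRL. Over 14 clusters rebuilt without these genes, Thbs1 was at least 2-fold lower in 4, down to a log2 ratio of -1.35, and higher in 4, up to 0.98. With the CTRL mix of annotated classes the log2 ratio was -0.63, and with that of rebuilt clusters -0.39. For COX2i + 5-AZA relative to CTRL the same weightings gave -1.19 and -0.79, so that the 2-fold difference was lost over rebuilt clusters. In the IRF3/7 library 80.2% of Thbs1 UMIs came from Infl_Mono cells, at 6019.9 CPM. The Myofibrobl cells of this library also stood apart, with 3625 CPM (3569 to 3681) against 301 (290.3 to 312) in CTRL, 256 in COX2i and 516 in COX2i + 5-AZA. At 2000 UMIs per cell, 66.5% of them (113 of 170) had a Thbs1 UMI, against 21.8% in CTRL (118 of 541) and 16.9% of the cDC2 of the IRF3/7 library. The summed level of 4 monocyte markers in the Myofibrobl cells was 132 CPM in CTRL, 268 in IRF3/7, 248 in COX2i and 249 in COX2i + 5-AZA. In IRF3/7 it came mostly from Plac8 (212 CPM, against 9.86 in CTRL), while Ccr2 and C5ar1 were lower there than in CTRL. The 6 neutrophil markers summed to 217, 338, 10.3 and 49.4 CPM in the same cells and order. Of these S100a8 was at 295 CPM in IRF3/7 and 78.3 in CTRL, but S100a9 at 28.8 and 111 CPM. The part of these markers in the Thbs1 difference was not tested. Weighted to the CTRL mix, Thbs1 in IRF3/7 against CTRL turned from a log2 ratio of 0.55 to -1.47 over annotated classes. Over rebuilt clusters it became -0.55. These weightings covered 30.1% and 2.18% of the CTRL UMIs. Of the 3 annotated classes used, TAM_cycling had only 20 IRF3/7 cells, with 36 Thbs1 UMIs, 18 of them in 1 cell. Within Infl_Mono, with 4335 IRF3/7 and 93 CTRL cells, the log2 ratio was 0.87 (0.79 to 0.94). Neutrophils, a small class, held 6517 CPM in CTRL (65 cells) and 2947 in COX2i + 5-AZA (196 cells).

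VCAM-1 transcripts were about 10 times lower in the MoMac cells of the COX2i library than in CTRL, and stood near the CTRL level in COX2i + 5-AZA. Vcam1 was at 83.8 CPM (81.4 to 86.3, 4582 UMIs) in CTRL, 44.4 (41.4 to 47.6, 793 UMIs) in IRF3/7, 8.36 (7.66 to 9.11, 523 UMIs) in COX2i and 79.9 (77.8 to 82.0, 5467 UMIs) in COX2i + 5-AZA. The COX2i library stood apart from the other 3. COX2i lay 10.0-fold below CTRL and COX2i + 5-AZA 9.55-fold above COX2i, at a log2 ratio of 3.26 (3.13 to 3.39), while COX2i + 5-AZA differed from CTRL by only -0.07 (-0.13 to -0.01). Vcam1 ranked 4th from the lowest of 10522 genes in the first of these contrasts and 32nd from the highest of 10447 in the second.

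Vcam1 was at least 2-fold lower in COX2i than in CTRL in 5 of 6 classes measured, all of them macrophages or monocytes, and was not lower in the Myofibrobl class. TAM_C1q cells held 129.9 CPM in CTRL (3046 UMIs in 3199 cells), 8.47 in COX2i (135 UMIs in 2023 cells) and 123 in COX2i + 5-AZA (1726 UMIs in 1379 cells). The log2 ratio of COX2i to CTRL there was -3.94 (-4.20 to -3.69). TAM_cycling cells went from 85.3 to 9.60 and 99.6 CPM in the same order. The lowest log2 ratio was that of Infl_Mono, -4.38 (-7.48 to -2.41), which rested on 33 UMIs in 93 CTRL cells and 2 UMIs in 130 COX2i cells. TAM_Spp1 cells had little Vcam1 in CTRL, COX2i and COX2i + 5-AZA, from 1.90 to 5.51 CPM. The 157 Ctsk_Macro cells of COX2i had no Vcam1 UMI. Set to the floor of 3 counts, this was 5.69-fold below the 10.5 CPM of CTRL, and the upper interval limit of the log2 ratio was -2.14. In Myofibrobl cells Vcam1 was 106 CPM in CTRL and 111 in COX2i, a log2 ratio of 0.06 (-0.06 to 0.18), and 66.9 in IRF3/7 and 179 in COX2i + 5-AZA. In the COX2i library Myofibrobl cells therefore held 70.8% of all Vcam1 UMIs, against 18.1% in CTRL. Among classes of at least 50 cells the highest levels were in TAM_H2Ab1, macrophages named for an MHC class II gene, with 208 CPM (189 to 229) in IRF3/7 and 288 (272 to 304) in COX2i + 5-AZA, where 385 and 419 such cells were found.

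Fewer macrophages of the COX2i library had a Vcam1 UMI at equal depth. With cells thinned to 2000 UMIs, 12% of TAM_C1q cells had one in CTRL (374 of 3108, 10.9 to 13.2), 1.26% in COX2i (25 of 1982, 0.818 to 1.86) and 11.9% in COX2i + 5-AZA (159 of 1340, 10.2 to 13.7). Without thinning the shares were 18.3%, 3.41% and 23.9%. In cDC2, where the gene was near its background, the thinned shares were 0.657% in CTRL, 0.312% in COX2i and 0 of 245 cells in COX2i + 5-AZA, where a floor of 3 counts is a share of 1.22%. Median depth was 6943, 7448 and 9502 UMIs in these TAM_C1q cells and 4184, 4682 and 4825 in the cDC2. Weighting COX2i to the CTRL mix of annotated classes gave a log2 ratio to CTRL of -3.43, and over clusters rebuilt without these genes -3.35. In the rebuilt clusters Vcam1 was lower in 10 of 10 measured, and at least 2-fold lower in 9. For IRF3/7 the same weightings turned the sign, from -0.92 to 1.48 and 2.46, over the small part of the CTRL UMIs that they covered. The annotated classes used included TAM_cycling, where IRF3/7 had 20 cells, with 37 Vcam1 UMIs in 7 of them. A rebuilt cluster with 20 IRF3/7 cells stood at 674 CPM, against 120 in CTRL. Within Infl_Mono the log2 ratio of IRF3/7 to CTRL was -1.77 (-2.29 to -1.21). The summed level of 7 macrophage markers in TAM_C1q cells was 63704 CPM in CTRL, 33763 in COX2i and 36402 in COX2i + 5-AZA. The lower sums were mostly those of Apoe (apolipoprotein E), at 41133, 12859 and 14694 CPM, while C1qb stood at 5855, 5881 and 6059 CPM and Mrc1 at 3354, 3277 and 3334 CPM in the same order. Of 7 endothelial markers 4 were in the table, and in these cells they summed to 35.4, 14.2 and 44.6 CPM. The sum was lowest in COX2i, as Vcam1 was, but it was highest in COX2i + 5-AZA and Vcam1 in CTRL. That pattern was mostly that of Pecam1, at 27.1, 6.4 and 36.5 CPM, while Cdh5 stood at 4.95, 4.96 and 5.07 CPM and Kdr at 2.69, 2.76 and 2.79 CPM. The 6 neutrophil markers summed to 148, 38.7 and 132 CPM. The part of Apoe and of the endothelial and neutrophil markers in the Vcam1 difference was not tested.

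**Figure D2:**
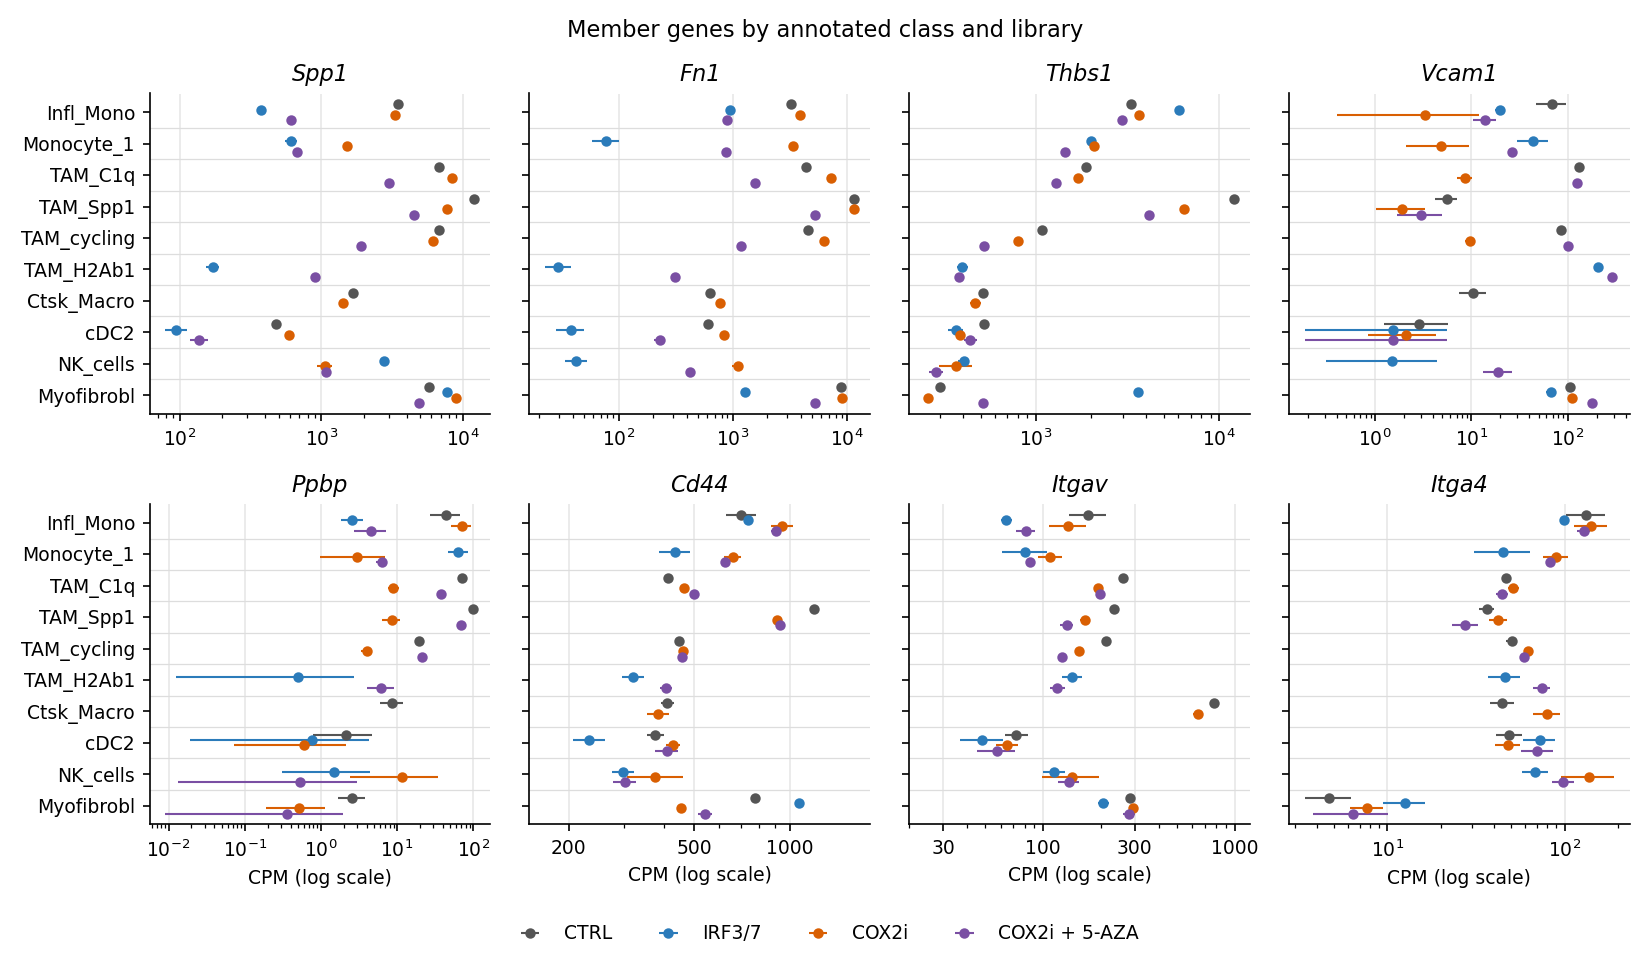
Level of each gene by annotated class and library, in CPM on a log axis. Each point is 1 class in 1 library with its exact Poisson 95% interval, drawn where the class has at least 50 cells and at least 1 UMI of the gene. The Vcam1 points of COX2i lie below those of CTRL in TAM_C1q (8.47 against 129.9 CPM) and beside them in Myofibrobl (111 against 106 CPM).

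The chemokine Ppbp was lower than in CTRL in all 3 other libraries. It stood at 56.2 CPM (54.2 to 58.2, 3070 UMIs) in CTRL, 4.70 (3.75 to 5.82, 84 UMIs) in IRF3/7, 6.22 (5.62 to 6.87, 389 UMIs) in COX2i and 21 (20 to 22.2, 1440 UMIs) in COX2i + 5-AZA. COX2i lay 9.03-fold and IRF3/7 11.9-fold below CTRL, and COX2i + 5-AZA lay between, 3.38-fold above COX2i. Of 6 classes measured, 5 were at least 2-fold lower in COX2i than in CTRL. The exception was Infl_Mono, with 43.4 CPM in CTRL and 70.4 in COX2i, where 41 of the 43 UMIs lay in 1 cell. TAM_Spp1 cells went from 98.8 to 8.49 CPM, TAM_C1q cells from 70.4 to 8.91 and TAM_cycling cells from 19.6 to 3.99. With COX2i + 5-AZA the same classes held 68.9, 38.0 and 21.2 CPM. In the 2 weightings by the CTRL mix the log2 ratio of COX2i to CTRL was -2.96 and -3.01, and that of COX2i + 5-AZA to COX2i was 2.30 and 3.17, against 1.76 as measured. For IRF3/7 and COX2i + 5-AZA against CTRL the weighting over rebuilt clusters turned the sign, to 1.08 over only 2.18% of the CTRL UMIs and to 0.16. A rebuilt cluster with 20 IRF3/7 cells stood at 91.7 CPM there, against 42.2 in CTRL.

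Few cells carried most of the Ppbp. In CTRL, 717 of 7614 MoMac cells had a UMI of it, 63 of them had at least 10, and the 77 cells with the most held 62.1% of its UMIs. In IRF3/7, 1 cell held 38 of the 84 UMIs. The top 1% of cells held 69.4% in COX2i and 81.5% in COX2i + 5-AZA, where 6 and 31 cells had at least 10 UMIs. The summed level of Ppbp thus rested on a small number of cells in each library. At 2000 UMIs per cell, 6.27% of TAM_C1q cells had a Ppbp UMI in CTRL (195 of 3108, 5.45 to 7.18), 1.06% in COX2i (21 of 1982, 0.657 to 1.62) and 3.51% in COX2i + 5-AZA (47 of 1340, 2.59 to 4.64). In cDC2 the shares were 0.493% in CTRL, 0.156% in COX2i and 0 of 245 cells in COX2i + 5-AZA, where a floor of 3 counts is again 1.22%. The interval of the COX2i share was 0.00396 to 0.867.

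Ppbp is a platelet gene, so the platelet and megakaryocyte markers are given beside it. Of 13 markers 7 were in the table, and their sum in MoMac cells was 5221 CPM in CTRL, 5197 in IRF3/7, 2456 in COX2i and 2197 in COX2i + 5-AZA, nearly all of it from Thbs1 and Pf4. Pf4 (platelet factor 4) stood at 1706, 82.4, 736 and 827 CPM. Gng11 stood at 11.7, 2.35, 12.3 and 6.47 CPM in the same order and Treml1 at 1.99, 0, 1.65 and 0.701 CPM. Itga2b was at 0.457, 0.28, 0.144 and 0.321 CPM, Clec1b at 0.165, 0.392, 0.208 and 0.497 CPM and Gp6 at 0, 0.224, 0.0320 and 0.0877 CPM. The part of platelet RNA in the Ppbp levels was not tested.

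**Figure D3:**
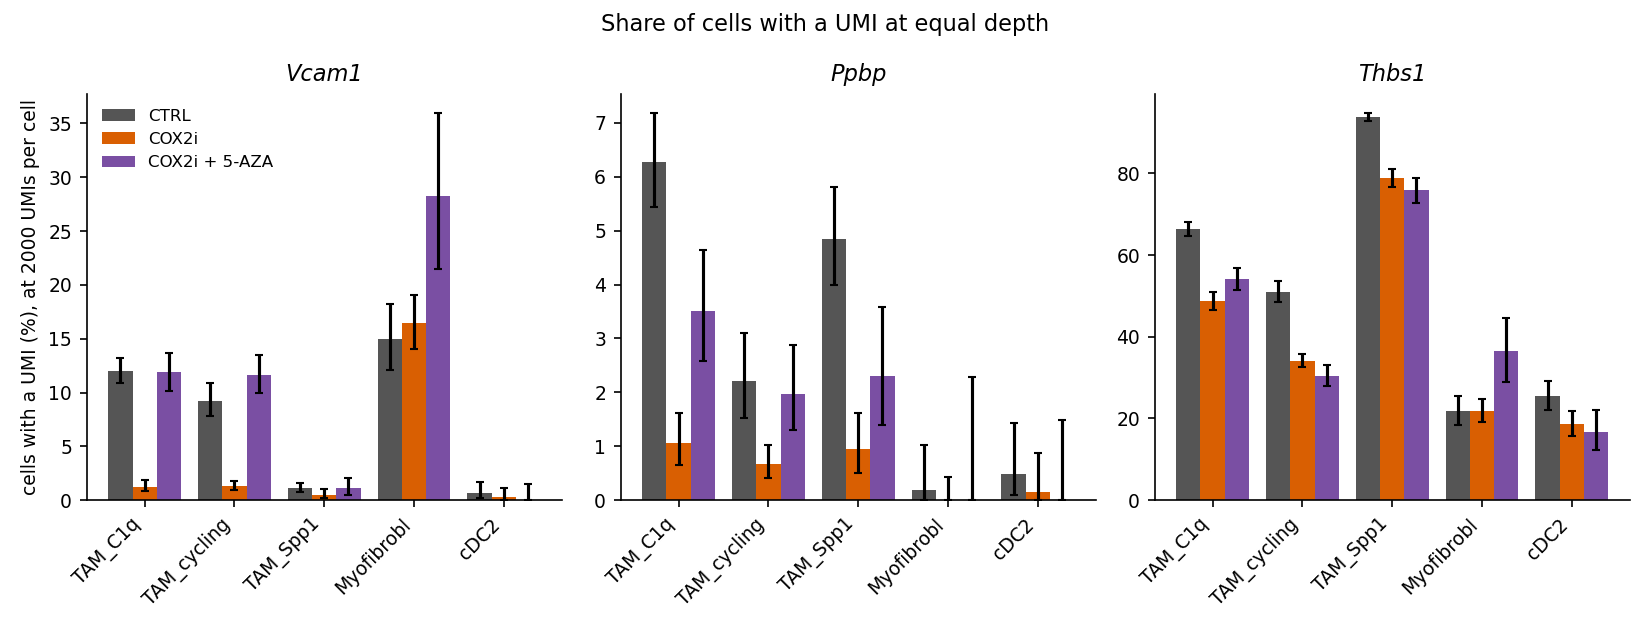
Share of cells with at least 1 UMI of Vcam1, Ppbp or Thbs1 after thinning each cell to 2000 UMIs, in percent on a linear axis, for 5 classes in CTRL, COX2i and COX2i + 5-AZA. Error bars are Clopper-Pearson 95% intervals. For Vcam1 the TAM_C1q shares are 12%, 1.26% and 11.9%, and the Myofibrobl shares 15%, 16.4% and 28.3%.

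The receptors spanned narrower ranges of level over the 4 libraries than the ligands. Cd44 stood at 578 CPM (572 to 584) in CTRL, 672 (659.7 to 684) in IRF3/7, 519.8 (514 to 526) in COX2i and 577 (572 to 583) in COX2i + 5-AZA across MoMac cells, so that CTRL and COX2i + 5-AZA did not differ beyond counting error. In CTRL it was highest in TAM_Spp1 cells, at 1199.5 CPM, where COX2i had 916 and COX2i + 5-AZA 934 CPM. Itgav, the αv chain, stood at 275 CPM (271 to 279.7) in CTRL, 77.3 (73.3 to 81.5) in IRF3/7, 177 (173 to 179.8) in COX2i and 128 (125 to 131) in COX2i + 5-AZA. CTRL was the highest library, and only IRF3/7 and COX2i + 5-AZA lay at least 2-fold below it, at log2 ratios of -1.83 (-1.91 to -1.75) and -1.10 (-1.14 to -1.07). At the CTRL mix of annotated classes and of rebuilt clusters the latter was -0.54 and -0.47. The IRF3/7 ratio became -1.13 and, below 2-fold, -0.90, over 30.1% and 2.18% of the CTRL UMIs. Ctsk_Macro, macrophages named for cathepsin K, held the most Itgav, 780.1 CPM in CTRL and 640.2 in COX2i. Itga4, the α4 chain, went the other way, at 46.8 CPM (45 to 48.7) in CTRL, 89.8 (85.4 to 94.3) in IRF3/7, 59.3 (57.4 to 61.3) in COX2i and 68.5 (66.6 to 70.5) in COX2i + 5-AZA. Its level was 98.7 to 141 CPM over the 4 libraries in Infl_Mono, and 45.2 CPM in IRF3/7, 89.2 in COX2i and 82.9 in COX2i + 5-AZA in Monocyte_1, against 44.6 to 51.3 CPM in TAM_C1q of CTRL, COX2i and COX2i + 5-AZA. With the CTRL mix of annotated classes the log2 ratio of Itga4 to CTRL was 0.25 in COX2i and 0.01 in COX2i + 5-AZA, and -0.61 in IRF3/7 over the 30.1% of CTRL UMIs that its classes covered. As measured, without weighting, these ratios were 0.34, 0.55 and 0.94. The classes weighted for IRF3/7 included TAM_cycling, where that library had only 20 cells. These held 15 Itgav UMIs and 5 Itga4 UMIs, 3 of the latter in 1 cell.

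**Figure D4:**
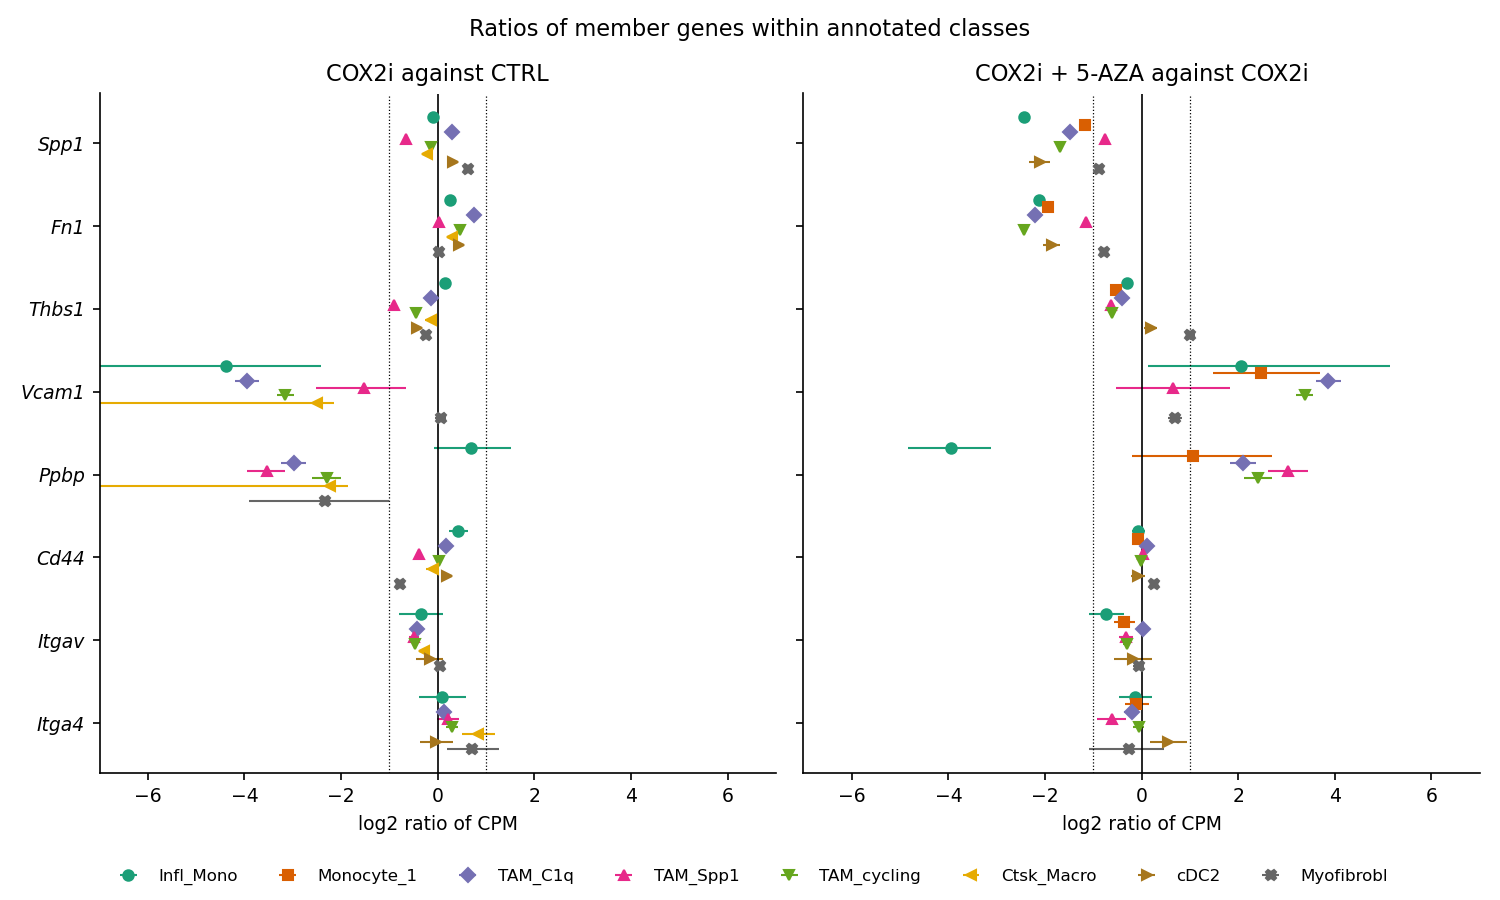
Log2 ratio of each gene within annotated classes, for COX2i relative to CTRL (left) and COX2i + 5-AZA relative to COX2i (right), with exact 95% counting intervals. Dotted lines mark a 2-fold difference, and a library with 0 UMIs is set to a floor of 3 counts with its bar drawn to the edge of the axis. Vcam1 lies at -3.94 and 3.86 in TAM_C1q, and Fn1 at 0.74 and -2.20.

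Within the TAM_C1q cells of CTRL, the share of cells with Vcam1 was lower among cells with Ppbp than among the rest. At 2000 UMIs per cell, a Vcam1 UMI was found in 5.64% of cells with Ppbp (11 of 195, 2.85 to 9.87) and in 12.5% of those without it (363 of 2913, 11.3 to 13.7). A Thbs1 UMI was found in 81.5% of cells with Ppbp (75.4 to 86.7) and 65.3% of those without (63.5 to 67.0). Cells with Vcam1 had Thbs1 in 52.9% (47.7 to 58.1), Spp1 in 78.9% (74.4 to 82.9) and Fn1 in 85.6% (81.6 to 89.0), against 68.1%, 88.6% and 93.2% of cells without it. The shares of all 3 secreted ligands were lower among the cells with Vcam1 in this class and library. These cells all come from 1 library, and a class can hold a gradient along which the genes differ.

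Across the 40 units of class and library with at least 50 cells, the genes whose log2(CPM + 1) ran closest to each of the 8 were named by Pearson's r over 11474 genes, as a description. The units share libraries, depth and free RNA and are not independent. Spp1 ran closest to Itga6 (0.88), which encodes the α6 integrin chain, and to Tmem119 (0.86), and Fn1 closest to Nt5dc2 (0.81), with Pdpn and Spp1 both at 0.80. Thbs1 ran closest to Xylt1 (0.85) and Gab1 (0.80). Vcam1 ran closest to Pdgfc (0.79), a growth factor gene, and had among its 5 nearest Mertk (0.73), the receptor with which macrophages take up dying cells. Ppbp ran closest to F13a1 (0.73), the A chain of coagulation factor XIII. Cd44 ran closest to Thbd (0.85), Itgav to Tspan4 (0.86) and Itga4 to Myo1g (0.88). Among the 8 themselves r was 0.80 for Spp1 and Fn1, 0.72 for Thbs1 and Cd44 and -0.60 for Spp1 and Itga4.

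The wider adhesion lists were drawn up with earlier results of these data known, and 73 of their 78 genes were in the table. They include the 8 genes of the report, with Spp1, Fn1, Thbs1 and Vcam1 among the ligands. The counts are therefore not independent of how those genes were chosen. The shares of all genes past 2-fold and their median ratios, given above for each comparison, are the background to the counts that follow. Among 23 ligands of the matrix and of cell surfaces, 11 were at least 2-fold lower and 3 higher in IRF3/7 than in CTRL within MoMac cells. Under COX2i the count was 7 lower and 0 higher, and under COX2i + 5-AZA 12 lower and 2 higher, both against CTRL. Beside Vcam1, the ligands furthest from CTRL under COX2i were Gpnmb, a surface glycoprotein, at a log2 ratio of -1.92, the matrix protein gene Tnc at -1.34 and Edil3 at -1.27. Under COX2i + 5-AZA the laminin gene Lamb1 stood at -2.44 and the perlecan gene Hspg2 at -2.31 against CTRL. The list's median log2 ratio was -0.92, -0.16, -1.36 and, for COX2i + 5-AZA against COX2i, -0.32.

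Of the integrin chains, 12 of 22 measured were at least 2-fold lower and 3 higher in IRF3/7 than in CTRL, 4 of 23 lower and 0 higher in COX2i, and 7 lower and 4 higher in COX2i + 5-AZA. Itgb3, the β3 chain that pairs with αv, stood at 15.6 CPM in CTRL, 0.784 in IRF3/7, 4.46 in COX2i and 2.50 in COX2i + 5-AZA. Itga6 stood at 321, 19.3, 325 and 75.0 CPM in the same order. Itgax, the CD11c chain, was among the higher ones, with 62.0 CPM in CTRL, 103 in COX2i and 296 in COX2i + 5-AZA. The list's median log2 ratio was -1.02, -0.13 and -0.46 against CTRL and -0.22 for COX2i + 5-AZA against COX2i.

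Of 18 other matrix receptors and CD44 partners, 9 were at least 2-fold lower and 3 higher in IRF3/7, 1 lower and 0 higher in COX2i, and 5 lower and 1 higher in COX2i + 5-AZA, against CTRL. Lyve1, a hyaluronan receptor, stood at 95.3 CPM in CTRL, 0.728 in IRF3/7, 30.3 in COX2i and 13.3 in COX2i + 5-AZA. Cd74, the invariant chain and a partner of CD44, stood 2.10 above CTRL on the log2 scale in COX2i + 5-AZA. Medians for this list were -0.80, -0.17 and -0.19 against CTRL and -0.17 for COX2i + 5-AZA against COX2i.

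Of the 4 lists, the platelet chemokines and receptors of the Cxcl family had the largest share of genes lower under COX2i, with Ppbp, chosen for its low level there, among them. Of 8 measured, 6 were at least 2-fold lower and 0 higher in COX2i than in CTRL, at a list median of -1.39, and 4 were at least 2-fold higher and 0 lower in COX2i + 5-AZA than in COX2i, at a median of 0.98. Cxcl3 stood at 20.9 CPM in CTRL, 3.47 in COX2i and 7.82 in COX2i + 5-AZA, and Cxcl2 at 400, 172 and 442 CPM. Both are chemokines that attract neutrophils. IRF3/7 had 5 lower and 1 higher than CTRL at a median of -1.97, and COX2i + 5-AZA had 3 lower and 0 higher at -0.60. Neutrophil markers in MoMac cells summed to 154 CPM in CTRL, 1610.0 in IRF3/7, 52.5 in COX2i and 618 in COX2i + 5-AZA, and their part in the chemokine levels was not tested.

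**Figure D5:**
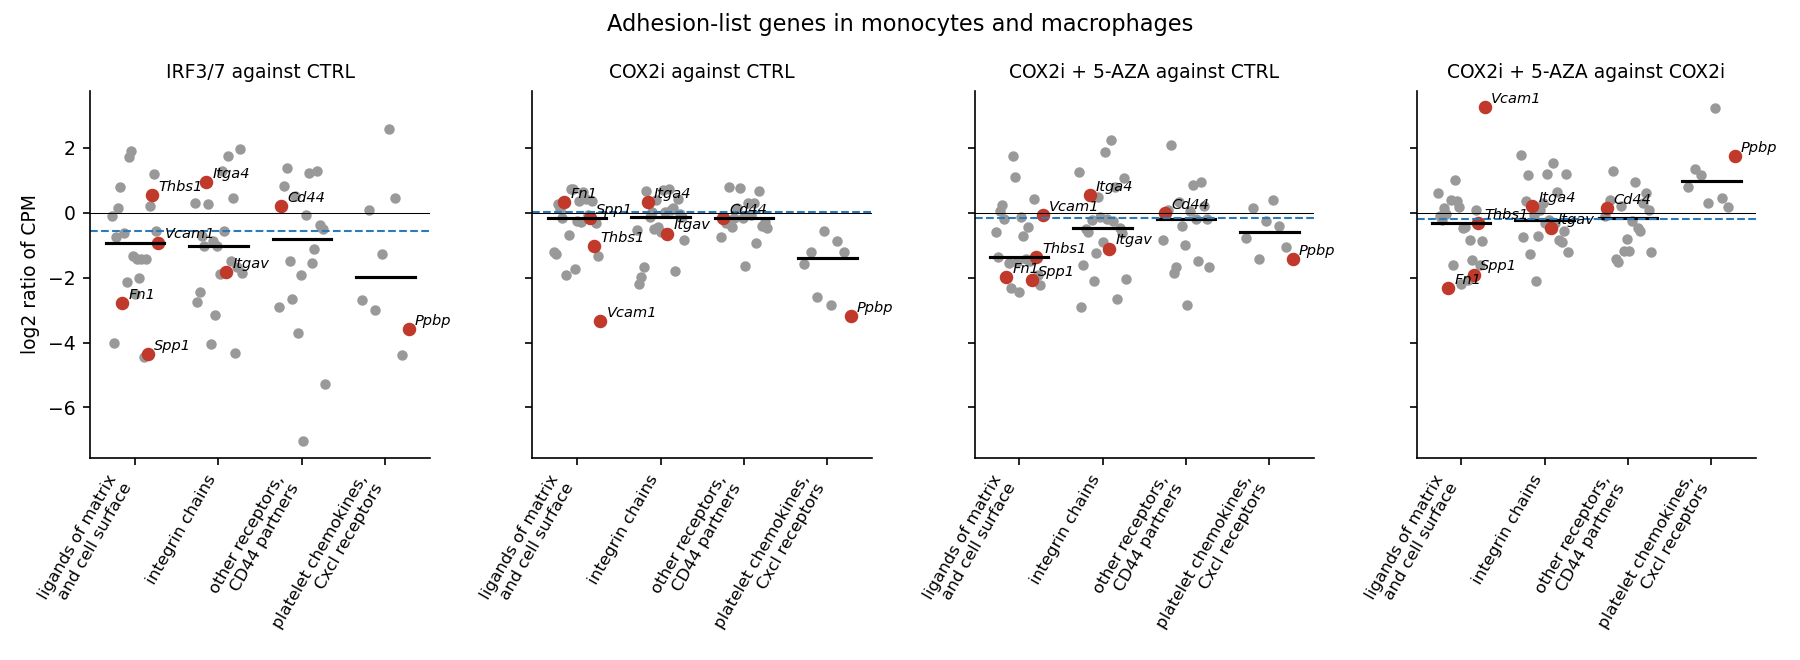
Log2 ratio within MoMac cells of each gene of the 4 adhesion lists, in the 4 comparisons. Each point is 1 gene, red points are the 8 genes of the report, the black line is the list median and the dashed blue line the median of all genes tested. The platelet chemokines have a median of -1.39 for COX2i relative to CTRL and 0.98 for COX2i + 5-AZA relative to COX2i.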

How the data were processed

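The authors sorted CD45+ live cells, hybridised fixed cells with the Chromium Fixed RNA probe set and ran Cell Ranger 7.1.0 against mm10 (submitters' processing notes). The deposited count table holds unnormalised UMIs of each gene in each cell, and a second table gives the library and class of each cell. Per the study's methods, cells were kept by detected genes and by mitochondrial and ribosomal share, genes were kept where found in every experiment, ribosomal and mitochondrial genes were removed, and classes came from Harmony-integrated clusters. The deposited table held 34447 cells in 17 classes, of which 1201 had 1000 or fewer genes. No doublet caller is named in the sources used here and none was run.

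Counts were summed per library and class and divided by total UMIs. A gene was tested, in the sense of measured for a 2-fold difference, from a sum of 20 UMIs over the pair of libraries. Ratios have exact conditional 95% intervals and shares Clopper-Pearson intervals, and intervals cover counting error only. With 1 library per group there was no test. Groups came from the labels, and class ratios needed at least 50 cells in both libraries. For the weightings, classes with at least 20 cells in both libraries took the CTRL mix, and clusters were rebuilt from 2000 variable genes, 30 principal components and 15 neighbours (scanpy 1.11.5), leaving out the 8 genes and the adhesion lists. Python 3.11.15, numpy 2.4.6 and scipy 1.17.1 were used, and the ratio code was tested on simulated data.

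The 8 genes and the adhesion lists were chosen with earlier results of these data known. Beside the 8, the text names the nearest 5 genes at most for each, and up to 4 genes per list and comparison with the largest ratio among those with at least 200 UMIs. Alternatives were median-of-ratios size factors, cells with more than 2000 genes, leaving out the 5% of cells with the most UMIs, the mean of each cell's CPM, both weightings, leaving out the Myofibrobl class, thinning to 1000 UMIs or none, a 1.5-fold threshold and at least 200 UMIs per gene.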

Additional observations from a re-analysis of the deposited data

Results flagged for a closer look

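Ppbp went in opposite directions in 2 classes between COX2i + 5-AZA and COX2i. Within Infl_Mono cells its log2 ratio was -3.95 (-4.83 to -3.12), from 70.4 to 4.57 CPM, and within TAM_Spp1 cells it was 3.02 (2.62 to 3.45), from 8.49 to 68.9 CPM. Each class is 1 library per group, so the difference between the classes was not tested. Of the 43 Ppbp UMIs in the 130 Infl_Mono cells of COX2i, 41 lay in 1 cell. In the TAM_Spp1 cells of COX2i + 5-AZA, 30 of 857 cells held the 347 Ppbp UMIs, with 87.0% of them in 9 cells and 22.8% in 1 cell.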

How the results depend on the processing

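No paired analysis was possible because each group is 1 library, and no library could be left out. Within MoMac cells, 16 ratios were past 2-fold, and 94 of their 96 alternative values kept the direction. The others were Ppbp under the CTRL mix of rebuilt clusters, at 1.08 in IRF3/7 and 0.16 in COX2i + 5-AZA against CTRL. Ppbp in Myofibrobl, IRF3/7 against CTRL, came out at 2.20 without the 5% of cells with the most UMIs. The IRF3/7 library had no Ppbp UMI in that class, so this value is the floor of 3 counts and shows no reversal. Over all cells, 80 of 80 values kept the direction.

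In counts of the 8 genes in MoMac cells against CTRL, those lower in IRF3/7 went from 4 to 2 (rebuilt mix) and those higher from 0 to 2 (size factors), 1 (annotated mix) and 2 (rebuilt mix). Those lower in COX2i + 5-AZA went from 5 to 3 (annotated mix) and 2 (rebuilt mix). Over all cells, 1 gene was higher in IRF3/7 with size factors, without the 5% of deepest cells and by mean CPM, and 3 rather than 5 were lower in COX2i + 5-AZA among cells with more than 2000 genes. Among those cells, pairs of gene and class higher than CTRL numbered 4 (IRF3/7), 2 (COX2i) and 2 (COX2i + 5-AZA), against 2, 0 and 0. For COX2i + 5-AZA the number was 1 without the deepest cells and 1 by mean CPM. Thinned to 1000 UMIs, the share of cells with a UMI was at least 2-fold lower in COX2i + 5-AZA for 4 genes against CTRL (1 at 2000 UMIs) and 2 against COX2i (0). At 1.5-fold, 9 adhesion genes were higher in COX2i than CTRL, against 0. The causes were not tested. IRF3/7 against CTRL is limited most, since the classes with enough cells in both covered 30.1% of CTRL MoMac UMIs. Of these classes, TAM_cycling had only 20 IRF3/7 cells.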
